A study of Mus musculus with 14 samples.

Results

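The 44 genes described here encode the proteins that mark replication origins, load and start the replicative helicase, copy DNA at the fork and supply its nucleotides. They were chosen by gene symbol, as a list of names, with earlier results of these data known. All 44 were found among the 77981 genes of the count table and passed the filter on low counts. Messenger RNA was counted from its 3′ ends in 14 mouse liver tumours: 4 lacking Cdk16 and Cdk18 (DKO), 5 lacking Cdk18 (CDK18KO) and 5 wild type (WT), each labelled as a biological replicate. Both proteins belong to the PCTAIRE kinases, relatives of the cell-cycle CDKs. The tumours of all groups were started with c-Myc and β-catenin plasmids by hydrodynamic injection, a rapid injection whose DNA is taken up mainly by hepatocytes. For deletion of Cdk16, the protocol describes floxed Cdk16 alleles with Cre-ERT2, a recombinase that tamoxifen switches on, tamoxifen at 75 mg/kg on 5 consecutive days, and collection 10 days after treatment. The same protocol names Cre-ERT2 controls, but the labels do not say if WT and CDK18KO animals received tamoxifen or carried Cre. Loss of Cdk16 therefore cannot be told apart from tamoxifen and Cre in comparisons with DKO. The promoter that drives Cre-ERT2 is also not stated. Tumours were bulk tissue, so fewer cycling cells and less of these RNAs per cell cannot be told apart.

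A cell licenses its origins before S phase. The origin recognition complex, CDC6 and CDT1 load the MCM2-7 ring onto DNA as an inactive double hexamer, and geminin holds CDT1 back once S phase has begun. The DBF4-dependent kinase CDC7 and the cyclin-dependent kinases then recruit CDC45 and the GINS complex, which turn the ring into the active CMG helicase, with MCM10 needed for its start. At the fork, polymerase epsilon copies the leading strand and polymerase delta the lagging strand, RFC loads the PCNA clamp, RPA covers single-stranded DNA, and FEN1 and LIG1 join the lagging-strand pieces. Most of these genes are targets of E2F transcription factors and are low in quiescent adult liver, whose hepatocytes rarely divide, and high in dividing tumour cells.

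The sequences at the gene starts are shown because E2F factors control many of these genes. Promoter sequences, taken from RefSeq on GRCm38.p6, were available as windows from 250 bases before to 50 after the start site and matched 37 of the 44 genes with 45 windows. Gmnn, Mcm4, Gins1, Gins2, Gins4, Rfc2 and Pole had no entry. One of the E2F letter strings TTTCCCGC, TTTGGCGC, TTTCGCGC or TTTGCCGC was found, on either strand, in 15 of the 45 windows, or 33.3%, against 744 of all 32851 windows, or 2.26%. The stretches around the letters are shown for the 10 of these 15 genes whose values are given in every library below, read along the sense strand of the gene, with the matching letters in capitals.
Orc1 (chr4:108579416-108579445, plus strand): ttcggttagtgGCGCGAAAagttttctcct
Orc3 (chr4:34614956-34615003, minus strand): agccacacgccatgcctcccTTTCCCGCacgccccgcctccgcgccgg
Cdc6 (chr11:98907993-98908040, plus strand): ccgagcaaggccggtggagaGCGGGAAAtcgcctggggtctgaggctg
Mcm3 (chr1:20820266-20820294, minus strand): gGCGGGAAAacttgggaagtTTTGGCGCc
Mcm5 (chr8:75109336-75109387, plus strand): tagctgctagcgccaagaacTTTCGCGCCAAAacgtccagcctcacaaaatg
Mcm6 (chr1:128359784-128359835, minus strand): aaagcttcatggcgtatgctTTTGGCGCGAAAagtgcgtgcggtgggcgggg
Mcm7 (chr5:138172021-138172068, minus strand): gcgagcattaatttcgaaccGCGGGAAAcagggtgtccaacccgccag
Pold3 (chr7:100121467-100121496, minus strand): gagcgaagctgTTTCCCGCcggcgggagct
Lig1 (chr7:13278841-13278870, plus strand): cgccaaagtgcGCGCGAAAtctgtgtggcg
Uhrf1 (chr17:56304108-56304155, plus strand): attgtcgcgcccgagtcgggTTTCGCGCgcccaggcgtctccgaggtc
In Mcm3 the strings stand apart from each other, while in Mcm5 and Mcm6 a pair of strings on opposite strands overlaps. Stretches reaching past the start site are kept to 30 bases. The stretch shown for Mcm6 holds 2 of the 3 matches in its window, and that for Mcm7 holds 1 of 2. Lig1 had 3 windows and Mcm7 and Uhrf1 had 2 each, for different start sites, and only 1 window of each gene held a match. The CCAAT box, searched as CCAAT on both strands, was found in 53.3% of the windows of these genes and 37.4% of all windows. The CHR element of mitotic genes, searched as TTTGAA or TTCGAA, was found in 22.2% and 19.2%. In DKO against WT the median log2 fold change was -0.67 over the 15 genes with a match and -0.56 over the 22 without. A match of letters is a description of the sequence and does not show that a factor binds there.

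Total counts per library ran from 1442417 to 6068209, and the 44 genes held 3098 to 22998 counts of a library. Per gene, summed over all libraries, counts ran from 528 for Pole2 to 13069 for Lig1. The targeted genes did not separate the groups: Cdk18 was at 4.000, 0.563, 1.94 and 1.11 CPM in DKO 1 to 4, 1.86, 1.06, 3.42, 2.64 and 0.927 CPM in CDK18KO 1 to 5 and 2.22, 10.4, 5.24, 1.26 and 4.63 CPM in WT 1 to 5. Cdk16 was at 38.9, 18, 48.5 and 17.8 CPM in DKO 1 to 4, 65.8, 36.7, 37, 32.7 and 31 CPM in CDK18KO 1 to 5, and 47.8, 59.2, 53, 40.02 and 45.5 CPM in WT 1 to 5. The labels do not say if the counted 3′ ends were deleted, so these levels do not check the genotypes. The first principal component of all genes held 48.8% of the variance. Y-linked genes summed to more than 100 CPM in WT 3, WT 5 and CDK18KO 1 and to 33.0 CPM or less elsewhere, and the labels used here do not give the sex of the animals. All 18 hepatocyte markers had counts in every library apart from Hnf4a in WT 1. Their sum ran from 195 CPM in WT 1 to 27989 CPM in DKO 2, so the presence of counts does not check the labelled tissue.

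Levels are given as CPM, counts scaled to 1 common library total with TMM factors, which correct for differences in library composition. Reads were counted from 3′ ends, so levels are not divided by transcript length, and they are compared between tumours and not between genes. Differences are log2 fold changes from edgeR's quasi-likelihood test over 13997 genes, with their standard error (SE), and a called gene is one whose adjusted p was under 0.05. Errors beside means are SD over libraries, with n = 4 for DKO and 5 each for CDK18KO and WT.

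**Figure D1:**
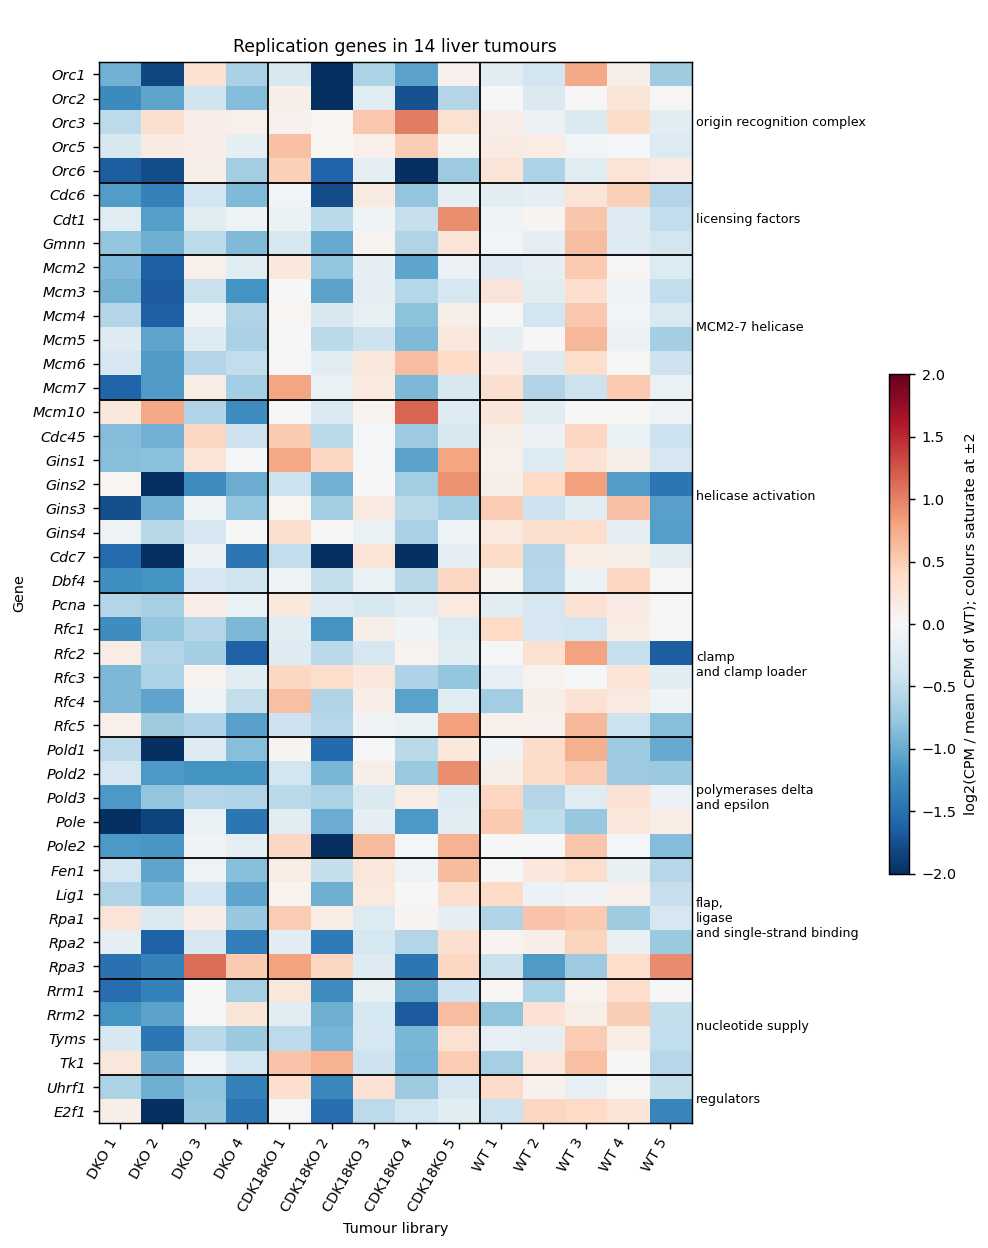
Level of each of the 44 genes (rows, by role) in each tumour library (columns: DKO, CDK18KO, WT) as log2 of its CPM over the mean CPM of WT, with blue lower and red higher and colours saturating at 2 in either direction. DKO 1, DKO 2, DKO 4, CDK18KO 2 and CDK18KO 4 are blue over most rows, whereas DKO 3 resembles the paler CDK18KO and WT columns.

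Most of the replication genes had lower mean levels in DKO than in WT, with no single gene past the threshold. Of the 44 genes, 42 had a negative log2 fold change and 2 a positive one, and the median was -0.62, against -0.04 over all genes tested. The changes ran from -1.13 for Pole, the catalytic subunit of polymerase epsilon, to 0.14 for Rpa3, the small subunit of RPA. By edgeR 0 of the 44 passed the adjusted threshold, as did 0.00714% of all genes, and the smallest adjusted p was 0.146, for Mcm3. Without adjustment, 13 of the 44 were lower at p under 0.05 and 0 were higher, while over all genes 5.22% were lower and 13.7% higher. DESeq2, run as an alternative, called 2 of the 44 lower, Mcm3 (log2 fold change -1.002, adjusted p = 0.0251) and Rfc1 (-0.86, adjusted p = 0.0316), against 1.13% of all genes. For Orc2, Gmnn, Rfc1 and Uhrf1 every DKO library lay below every WT library, and the same held for 2.46% of all genes. The count of 13 moved with single libraries, as did the share of all genes lower at that p. It was 4 without DKO 2 (2.42% of all genes), 6 without DKO 4 (2.72%), 8 without WT 1 (3.04%) and 7 without WT 3 (5.04%).

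In DKO against CDK18KO, which shares the DKO libraries with the comparison above, most of the genes also had lower mean levels in DKO. Of the 44 genes 43 were lower and 1 was higher (Orc1, 0.072), and the median log2 fold change was -0.43, against -0.02 over all genes. The adjusted threshold was passed by 0 of the 44 in edgeR and by 0% of all genes. At an unadjusted p under 0.05, Mcm6, Lig1, Fen1 and Rfc1 were lower, 4 of the 44, and 0 were higher, against 1.86% and 3.94% of all genes. Mcm6 alone did not overlap between the groups, as was so for 0.722% of all genes, and DESeq2 called 0 of the 44 against 0.0286% of all genes. The count of 4 was 1 without DKO 2 (1.45% of all genes) or CDK18KO 5 (1.55%) and 2 without DKO 4 (1.19%) or CDK18KO 3 (1.23%). It was 8 without DKO 3 (3.35%) or CDK18KO 4 (1.57%) and 10 without CDK18KO 2 (3.08%).

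CDK18KO and WT differed less in these genes. Of the 44 genes 30 were lower and 14 higher in CDK18KO, with a median of -0.17 against -0.01 over all genes, and a range from -0.69 for Cdc7 to 0.45 for Orc3. The adjusted threshold was passed by 0 of the 44 in edgeR, against 0.00714% of all genes, with a smallest adjusted p of 0.363 for Orc2. Also at an unadjusted p under 0.05 the count was 0 in either direction, against 5.31% of all genes lower and 11.6% higher. DESeq2 called 0 of the 44, against 1.81% of all genes lower, and 0 of the 44 lay below every WT library throughout CDK18KO, against 1.6% of all genes. The comparisons of DKO and CDK18KO with WT share the WT libraries, so their values are given side by side and not as separate support.

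**Figure D2:**
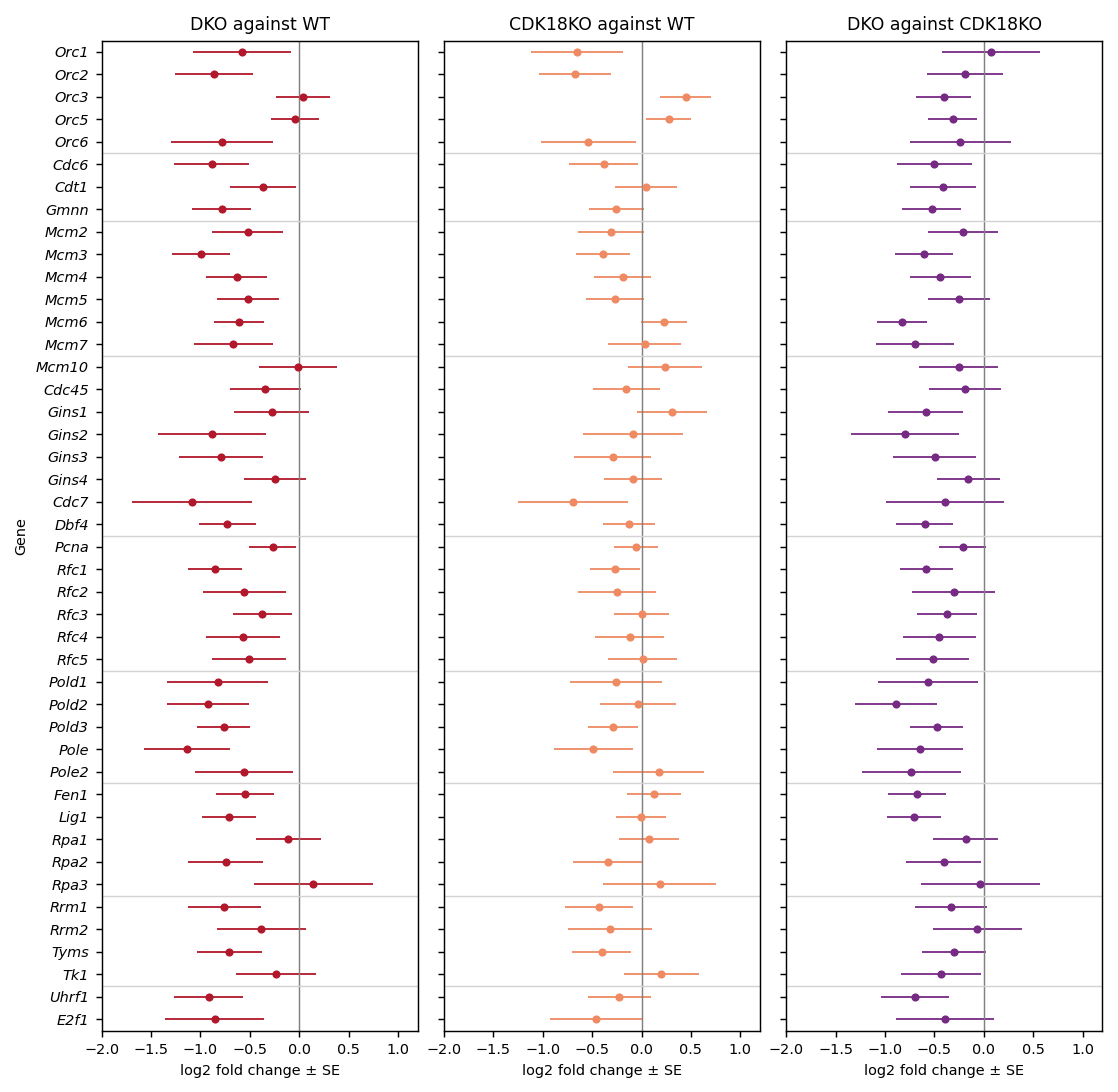
Log2 fold change (x axis) of each of the 44 genes (y axis, by role) in DKO against WT, CDK18KO against WT and DKO against CDK18KO, as points with bars of 1 SE. In the first panel 42 of 44 points lie left of 0, in the second 30 and in the third 43.

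**Figure D3:**
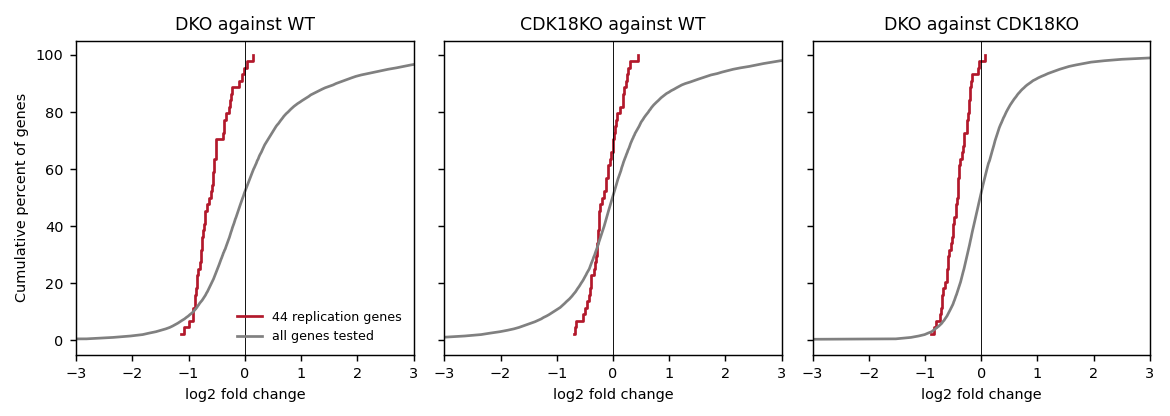
Cumulative percent of genes (y axis) by log2 fold change (x axis) for the 44 replication genes (red) and all 13997 genes tested (grey) in the 3 comparisons. The median of the 44 genes is -0.62, -0.17 and -0.43 in the panels from left to right, and that of all genes -0.04, -0.01 and -0.02.

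Tumours of 1 genotype differed widely in these genes. Per library, the median over the 44 genes of log2(CPM over the WT mean) was -0.717, -1.06, -0.188 and -0.685 among DKO 1 to 4, 0.0396, -0.663, -0.0838, -0.636 and 0.0751 among CDK18KO 1 to 5 and 0.0425, -0.148, 0.317, 0.0657 and -0.422 among WT 1 to 5. DKO 1, DKO 2, DKO 4, CDK18KO 2 and CDK18KO 4 lay below every WT library, while DKO 3 lay above WT 5 and the groups therefore overlapped. The number of the 44 genes below all WT libraries was 28, 36, 8 and 24 in DKO 1 to 4 and 1, 24, 0, 23 and 4 in CDK18KO 1 to 5. Above all WT libraries were 0, 2, 1 and 0 of them in DKO 1 to 4 and 7, 3, 2, 4 and 9 in CDK18KO 1 to 5, so that CDK18KO 1, CDK18KO 3 and CDK18KO 5 had more of the 44 above than below. Over all genes tested, 11.3% to 29.1% lay below all WT libraries and 14.7% to 28.8% above them in a DKO library, against 12.7% to 31.9% and 11.6% to 29.4% in a CDK18KO library. DKO 2 held the lowest value of all 14 libraries for 15 genes, DKO 1 for 11 and DKO 4 for 6, against 5 each for CDK18KO 2 and CDK18KO 4 and 2 for WT 5. WT 3 held the highest value for 12 genes. Summed over the 44 genes, expression was 2186, 1745, 2984 and 2207 CPM in DKO 1 to 4, 3717, 2223, 3445, 2686 and 3866 CPM in CDK18KO 1 to 5 and 3795, 3159, 4024, 3752 and 2866 CPM in WT 1 to 5. Without DKO 3 the median log2 fold change of DKO against WT was -0.82, and 15 of the 44 genes lay below every WT library, as did 10.7% of all genes. Without WT 5, 12 of the 44 did so, against 4.47% of all genes.

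Hepatocyte markers stood highest in the tumours where these genes were lowest. The 5 libraries with the lowest replication medians were also the 5 with the highest sums over 18 hepatocyte markers such as Alb, Cps1 and Cyp2e1, 14032, 27989, 1932 and 7949 CPM in DKO 1 to 4, 2741, 17672, 1674, 10006 and 7553 CPM in CDK18KO 1 to 5 and 195, 4604, 309.7, 596 and 2589.7 CPM in WT 1 to 5. CDK18KO 5 had the next highest sum, beside a replication median of 0.0751. All 18 markers were higher in DKO than in WT, 15 of them at an unadjusted p under 0.05, against 13.7% of all genes. In CDK18KO, 16 of 18 were higher than in WT. In a fit with the mean log2 level of these markers as a covariate, chosen after the data were seen, the median of the 44 genes was -0.16 in DKO against WT, with 30 lower and 14 higher. In that fit 0 of the 44 were lower at an unadjusted p under 0.05, against 0.607% of all genes. The same fit gave a median of 0.11 for CDK18KO against WT, with 11 genes lower and 33 higher, and -0.31 for DKO against CDK18KO, with 39 lower and 5 higher. Markers of blood cells and macrophages were also higher in DKO. Of those tested, 11 of 11 erythroid (12 listed), 8 of 8 neutrophil (12 listed) and 3 of 3 B and plasma cell markers (10 listed) were higher than in WT. The same held for 10 of 10 macrophage and Kupffer cell markers (12 listed), against 6706 of all 13997 genes. A gene can pass the filter on low counts through 1 group alone. For markers that were low outside DKO, above all those of B and plasma cells, the direction was therefore partly set by the filter. The sums that follow take in the whole lists. Erythroid markers summed to 2135 to 11165 CPM in DKO, 815 to 2483 CPM in CDK18KO and 1123 to 2998 CPM in WT. Neutrophil markers summed to 407 to 604, 9.32 to 104 and 45.7 to 305 CPM in DKO, CDK18KO and WT, and macrophage markers to 147 to 1058, 102 to 296 and 109 to 355 CPM. B and plasma cell markers summed to 34.3 to 137, 1.321 to 8.39 and 2.6 to 9.26 CPM, with Mzb1 at 0 counts in every library. The part of the blood cells and macrophages in the lower replication values was not tested. Stellate cell and cholangiocyte markers were lower in CDK18KO than in WT, 16 of 17 and 7 of 8 of those tested (18 and 10 listed). The same limit of the filter applies to them, and their part in the replication values was not tested either.

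**Figure D4:**
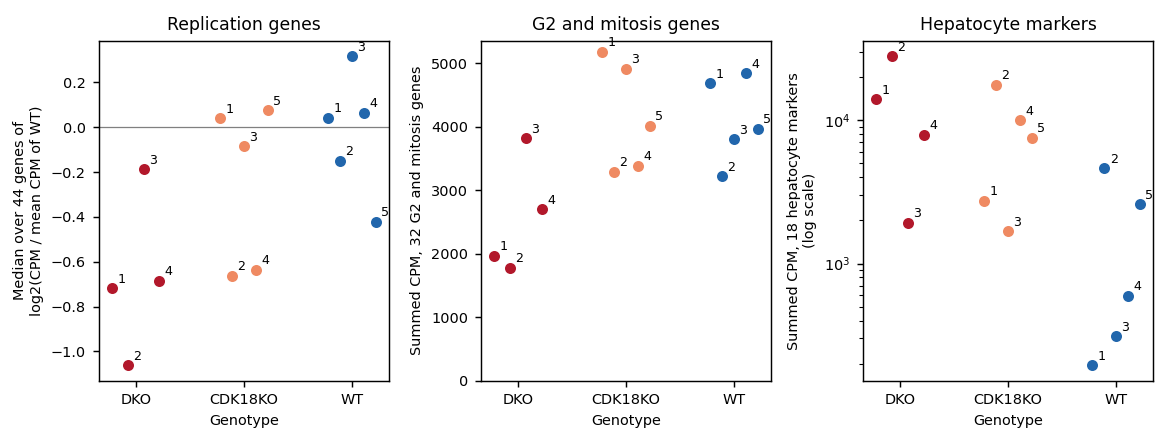
Median over the 44 replication genes of log2(CPM over the WT mean), summed CPM of 32 G2 and mitosis genes, and summed CPM of 18 hepatocyte markers (log axis) in each tumour, by genotype, with the replicate number beside each point. The 5 tumours lowest in the left panel (DKO 1, DKO 2, DKO 4, CDK18KO 2 and CDK18KO 4) are the 5 highest in the right panel.

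Among the origin recognition complex genes of the 44, Orc3 and Orc5 had fold changes near 0 in DKO against WT. The other 3 had negative ones, and differences between the genes were not tested. Orc4, a subunit outside the 44, was at 0.27 (SE 0.33) in DKO against WT, with 145 CPM in DKO 4. Orc2, a core subunit whose last 500 bases overlap Nif3l1 on the opposite strand, was at 36.3, 42.3, 66.7 and 48.3 CPM in DKO 1 to 4, 95, 21.3, 74.5, 26.4 and 58.4 CPM in CDK18KO 1 to 5, and 87.9, 71.8, 87.3, 104 and 89.5 CPM in WT 1 to 5. Every DKO library lay below the lowest WT library, and CDK18KO 2 and CDK18KO 4 lay lower still. The log2 fold change was -0.86 (SE 0.39, edgeR adjusted p = 0.253) in DKO against WT and -0.67 (SE 0.36, edgeR adjusted p = 0.363) in CDK18KO against WT. Orc1, the subunit that binds and hydrolyses ATP for loading, was at 14.3, 7.89, 34.3 and 17.8 CPM in DKO 1 to 4, 22.4, 5.32, 18, 13.2 and 29.7 CPM in CDK18KO 1 to 5, and 23.7, 21.3, 46.9, 30.2 and 17 CPM in WT 1 to 5. DKO 3 and DKO 4 stood within the WT range and DKO 2 and CDK18KO 2 stood lowest, with log2 fold changes of -0.58 (SE 0.50) in DKO and -0.65 (SE 0.46) in CDK18KO against WT. Orc6 averaged 24.5 ± 15.6 CPM in DKO, 28.8 ± 19.7 in CDK18KO and 42.2 ± 10.4 in WT, with -0.78 (SE 0.52) in DKO and -0.54 (SE 0.48) in CDK18KO against WT.

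Orc3 and Orc5 encode further subunits of the complex. Orc3 was at 24.3, 43.4, 38.2 and 37.2 CPM in DKO 1 to 4, 37, 35.6, 50.6, 70.4 and 43.1 CPM in CDK18KO 1 to 5, and 38.2, 32.1, 28.5, 44.7 and 30.1 CPM in WT 1 to 5. CDK18KO 3 and CDK18KO 4 lay above all WT libraries, and the fold change was 0.45 (SE 0.26, edgeR adjusted p = 0.399) in CDK18KO against WT and 0.039 (SE 0.28) in DKO against WT. Orc5 was at 15.7, 22, 21.4 and 17.2 CPM in DKO 1 to 4, 29.5, 20.2, 21.1, 27.4 and 20.4 CPM in CDK18KO 1 to 5, and 21.9, 21.7, 18.9, 19.2 and 16.2 CPM in WT 1 to 5. The groups overlapped, with -0.043 (SE 0.25) in DKO and 0.27 (SE 0.23) in CDK18KO against WT. Thus in CDK18KO 4 Orc3 reached its highest level of the 14 tumours and Orc6 its lowest.

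The licensing factors were lower in DKO than in WT for all 3 genes, with a median of -0.79. Cdc6, the ATPase that joins the origin complex for loading, was at 16, 13.5, 26.5 and 18.9 CPM in DKO 1 to 4, 33.2, 10.1, 39.1, 20.1 and 30.1 CPM in CDK18KO 1 to 5, and 30.04, 30.6, 41.3, 48.2 and 23.1 CPM in WT 1 to 5. DKO 1, DKO 2, DKO 4, CDK18KO 2 and CDK18KO 4 lay below every WT library, and the difference was -0.89 (SE 0.38, edgeR adjusted p = 0.227) for DKO against WT. Gmnn, which encodes geminin, was at 37.1, 32.7, 44.7 and 35 CPM in DKO 1 to 4, 51.9, 31.9, 67.1, 42.3 and 76.9 CPM in CDK18KO 1 to 5, and 61.9, 57, 99.3, 53.9 and 50.1 CPM in WT 1 to 5. All DKO values lay below all WT values, and the difference was -0.79 (SE 0.30, edgeR adjusted p = 0.178). Cdt1, the partner that geminin holds back, averaged 98.6 ± 26.8 CPM in DKO, 132 ± 63.4 in CDK18KO and 127 ± 36.6 in WT, with -0.37 (SE 0.33) in DKO against WT, and CDK18KO 5 stood above all other libraries at 242 CPM. The ratio of Gmnn to Cdt1 was 0.294 to 0.552 in DKO, 0.317 to 0.561 in CDK18KO and 0.43 to 0.556 in WT, with overlapping groups.

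All 6 subunits of the MCM2-7 ring, the core of the replicative helicase, had a negative fold change in DKO against WT, from -0.99 to -0.52. Mcm3 was at 94, 57.5, 134 and 78.9 CPM in DKO 1 to 4, 184, 86.1, 161, 122 and 142 CPM in CDK18KO 1 to 5, and 218, 157, 230.2, 174 and 129.6 CPM in WT 1 to 5. DKO 3 alone among the DKO tumours reached into the WT range, just above WT 5, and the difference was -0.99 (SE 0.30, edgeR adjusted p = 0.146), with a 95% interval of -1.57 to -0.42. Against CDK18KO the difference was -0.61 (SE 0.29, edgeR adjusted p = 0.892). Mcm6 was at 96, 55.2, 80.9 and 86.1 CPM in DKO 1 to 4, 118, 104, 141, 186 and 159 CPM in CDK18KO 1 to 5, and 136, 101, 155, 123 and 91 CPM in WT 1 to 5. Each DKO tumour lay below each CDK18KO tumour, while WT 5 lay below DKO 1, and the difference was -0.83 (SE 0.25, edgeR adjusted p = 0.485) against CDK18KO and -0.61 (SE 0.25, edgeR adjusted p = 0.209) against WT. In CDK18KO against WT, Mcm6 was on the other side of 0, at 0.22 (SE 0.23). Mcm6 lies at chr1:128331590-128359664 on GRCm38, 3.75 Mb from Cdk18, the nearest of the 44 genes to it.

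The other ring subunits overlapped between all groups. Mcm2 was at 40.9, 24.2, 80.9 and 63.9 CPM in DKO 1 to 4, 87.6, 44.1, 66.5, 36.3 and 69.5 CPM in CDK18KO 1 to 5, and 62.7, 66.8, 108, 76.6 and 62.5 CPM in WT 1 to 5, with -0.52 (SE 0.36) in DKO against WT. Mcm4 was at 82.9, 40.003, 115 and 82.2 CPM in DKO 1 to 4, 128, 99.98, 112, 70.03 and 134 CPM in CDK18KO 1 to 5, and 124, 95.6, 181, 119 and 101 CPM in WT 1 to 5, with -0.63 (SE 0.31). Mcm5 was at 67.1, 38.9, 67.6 and 51.7 CPM in DKO 1 to 4, 81.4, 55.3, 60.9, 43.6 and 94.5 CPM in CDK18KO 1 to 5, and 70.5, 81.1, 127, 74.4 and 50.1 CPM in WT 1 to 5, with -0.52 (SE 0.31). For Mcm2, Mcm4 and Mcm5 the lowest of the 14 values was that of DKO 2 and the highest that of WT 3. Mcm7 was at 68.9, 95.2, 232 and 131 CPM in DKO 1 to 4, 360.00, 189.8, 239, 112 and 168 CPM in CDK18KO 1 to 5, and 261, 138, 155, 299.7 and 191 CPM in WT 1 to 5, with -0.67 (SE 0.40) in DKO and 0.032 (SE 0.37) in CDK18KO against WT. Mcm7 departed from these subunits, since its highest value was in CDK18KO 1 and its lowest in DKO 1. Mcm6 also had its highest value outside WT 3, at 186 CPM in CDK18KO 4. The last 500 bases of Mcm7 overlap Cops6 on the opposite strand, and reads of the 2 genes are told apart only if strand was used in counting.

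**Figure D5:**
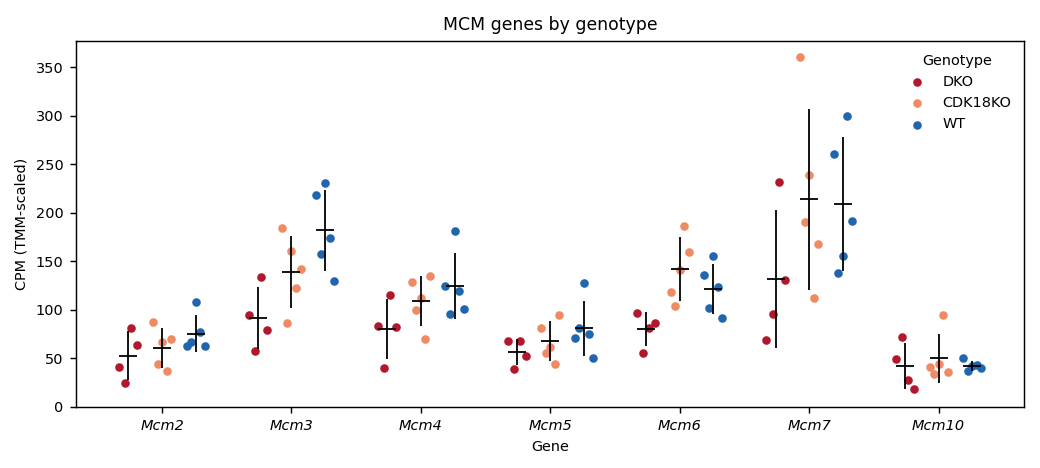
TMM-scaled CPM (y axis) of the 6 ring subunits and of Mcm10 (x axis) in each tumour, DKO, CDK18KO and WT from left to right within a gene, with horizontal ticks for the mean and vertical bars for 1 SD. For Mcm6 all 4 DKO points (55.2 to 96.0) lie under all 5 CDK18KO points (104 to 186), and for Mcm10 the highest points are CDK18KO 4 and DKO 2.

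All 8 genes of helicase activation had a negative fold change in DKO against WT, with a median of -0.53 and 0 past the adjusted threshold. Dbf4, the activating subunit, was at 86.3, 87.9, 159 and 153 CPM in DKO 1 to 4, 189, 145, 183, 137 and 266 CPM in CDK18KO 1 to 5, and 209.9, 136, 184, 271 and 204 CPM in WT 1 to 5. DKO 1 and DKO 2 lay below every WT library, and the difference was -0.73 (SE 0.29, edgeR adjusted p = 0.193) against WT and -0.60 (SE 0.29, edgeR adjusted p = 0.889) against CDK18KO. Cdc7, the kinase itself, was at 14, 9.58, 37.5 and 15 CPM in DKO 1 to 4, 28.9, 7.45, 48.8, 4.29 and 36.1 CPM in CDK18KO 1 to 5, and 52.7, 27.2, 45.1, 44.1 and 34.7 CPM in WT 1 to 5. Values under 10 CPM occurred in DKO 2, CDK18KO 2 and CDK18KO 4, the differences were -1.09 (SE 0.61) in DKO and -0.69 (SE 0.56) in CDK18KO against WT, and neither passed the test. The ratio of Cdc7 to Dbf4 was 0.0513 in CDK18KO 2 and 0.0314 in CDK18KO 4, against 0.136 to 0.266 in the other CDK18KO tumours, 0.0982 to 0.236 in DKO and 0.163 to 0.251 in WT. Cdc45 averaged 16.4 ± 7.93 CPM in DKO, 18.7 ± 6.83 in CDK18KO and 20.8 ± 4.73 in WT, with -0.34 (SE 0.36) in DKO against WT. For the GINS genes the differences in DKO against WT were -0.28 for Gins1, -0.88 for Gins2, -0.79 for Gins3 and -0.24 for Gins4, with SE of 0.32 to 0.55 and adjusted p of 0.324 to 0.707 by edgeR.

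Mcm10 varied between tumours in another way than the ring. It was at 49.1, 72.1, 27.8 and 17.8 CPM in DKO 1 to 4, 41, 34, 44.1, 94.1 and 35.2 CPM in CDK18KO 1 to 5, and 49.7, 36.1, 41.9, 42.5 and 40.1 CPM in WT 1 to 5. The mean was 41.7 ± 24.1 CPM in DKO, 49.7 ± 25.2 in CDK18KO and 42.1 ± 4.93 in WT, so that the SD was 57.8% of the mean in DKO, 50.7% in CDK18KO and 11.7% in WT, the lowest such share of the 44 genes in WT. The highest values were in CDK18KO 4 and DKO 2, tumours low in most of the other 43 genes. Its ratio to Mcm2 was 2.98 in DKO 2 and 2.59 in CDK18KO 4, against 0.278 to 1.2 in the other 12 libraries. The mean difference of DKO against WT was -0.013 (SE 0.40), a difference with a 95% interval of -0.79 to 0.77.

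The clamp and its loader were lower in DKO than in WT for all 6 genes, with a median of -0.53. Rfc1, the large subunit of the loader, was at 135, 187, 212 and 172 CPM in DKO 1 to 4, 273, 141, 346, 299 and 263 CPM in CDK18KO 1 to 5, and 422, 252, 245, 352 and 323 CPM in WT 1 to 5. All DKO values lay below all WT values, CDK18KO 2 stood with DKO, and the difference was -0.85 (SE 0.27, edgeR adjusted p = 0.146) against WT and -0.59 (SE 0.27, edgeR adjusted p = 0.839) against CDK18KO. Pcna, the clamp, averaged 103 ± 28.2 CPM in DKO, 119.6 ± 22 in CDK18KO and 124 ± 22.1 in WT, with -0.27 (SE 0.24) in DKO and -0.055 (SE 0.22) in CDK18KO against WT. The 2 annotated Pcna pseudogenes held 0 and 6 counts in all libraries together, against 4806 for Pcna. The small loader subunits Rfc2, Rfc3, Rfc4 and Rfc5 differed by -0.55, -0.37, -0.57 and -0.51 in DKO against WT, with SE of 0.30 to 0.42. For Rfc2, Rfc4 and Rfc5 a gene on the opposite strand overlaps the last 500 bases, as it does for 9 of the 44 genes in all.

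The 5 polymerase genes among the 44 had the most negative median among the groups of more than 2 genes, -0.83 in DKO against WT, with all 5 lower. Subunits of these polymerases outside the 44 went either way. They differed by -0.65 (SE 0.22) for Pole3, 0.69 (SE 0.48) for Pold4 and 0.32 (SE 0.23) for Pole4. Pole was at 6.000, 6.76, 22 and 8.89 CPM in DKO 1 to 4, 20.8, 12.2, 21.1, 10.9 and 20.9 CPM in CDK18KO 1 to 5, and 34.9, 17, 14.3, 28 and 27 CPM in WT 1 to 5. DKO 3 lay within the WT range and the other DKO tumours below it, and the difference was -1.13 (SE 0.44, edgeR adjusted p = 0.183). Pold3, an accessory subunit of polymerase delta, was at 25.7, 32.7, 37.9 and 37.2 CPM in DKO 1 to 4, 38.8, 36.7, 46.6, 62.8 and 47.3 CPM in CDK18KO 1 to 5, and 76.4, 37.6, 47.7, 69.3 and 52.5 CPM in WT 1 to 5. DKO 3 just exceeded WT 2, the only overlap of DKO with WT, and the difference was -0.76 (SE 0.27, edgeR adjusted p = 0.16). Pold2, the small subunit of the polymerase delta core, was at 58.3, 33.2, 32.4 and 32.2 CPM in DKO 1 to 4, 57.5, 39.4, 79.8, 43.9 and 141 CPM in CDK18KO 1 to 5, and 80.5, 95.8, 105, 44.4 and 44 CPM in WT 1 to 5. DKO 2, DKO 3 and DKO 4 lay close together below all WT libraries and DKO 1 lay higher, and the difference was -0.92 (SE 0.41, edgeR adjusted p = 0.25) against WT and -0.89 (SE 0.41, edgeR adjusted p = 0.861) against CDK18KO. Pold1, the catalytic subunit, averaged 7.85 ± 4.05 CPM in DKO, 11.8 ± 4.61 in CDK18KO and 14 ± 6.68 in WT, with -0.83 (SE 0.51) in DKO against WT. Pole2 averaged 8.61 ± 3.41 CPM in DKO, 14.3 ± 7.26 in CDK18KO and 12.6 ± 4.14 in WT, with -0.56 (SE 0.50) in DKO and 0.18 (SE 0.46) in CDK18KO against WT. Pold1 and Pole2 had the fewest counts of the 44 genes, as low as 4 and 5 in a library, so their levels are the least precise.

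Lig1 and Fen1, which finish the lagging strand, had lower means in DKO than in both other groups. Lig1, which seals the nicks, was at 225, 181, 264 and 164 CPM in DKO 1 to 4, 358, 174, 391, 344 and 436 CPM in CDK18KO 1 to 5, and 453, 315, 327, 369 and 248 CPM in WT 1 to 5. DKO 3 alone exceeded a WT tumour, WT 5, while CDK18KO 2 stood with DKO, and the difference was -0.71 (SE 0.28, edgeR adjusted p = 0.183) against WT and -0.71 (SE 0.28, edgeR adjusted p = 0.702) against CDK18KO. Fen1, the flap endonuclease, was at 42, 26.5, 51.1 and 30.6 CPM in DKO 1 to 4, 60.9, 39.4, 64.6, 51.5 and 85.3 CPM in CDK18KO 1 to 5, and 54.9, 63.5, 70.1, 49.5 and 37 CPM in WT 1 to 5. The difference was -0.68 (SE 0.29, edgeR adjusted p = 0.794) against CDK18KO and -0.55 (SE 0.29, edgeR adjusted p = 0.321) against WT. Both genes were close to WT in CDK18KO, at -0.0075 (SE 0.26) for Lig1 and 0.13 (SE 0.27) for Fen1. The RPA subunits did not share 1 pattern: the difference in DKO against WT was -0.11 (SE 0.33) for Rpa1, -0.74 (SE 0.38) for Rpa2 and 0.14 (SE 0.60) for Rpa3. Rpa3 ran from 7.71 to 46.9 CPM in DKO, 7.93 to 37.9 CPM in CDK18KO and 9.89 to 41.7 CPM in WT, with its highest value in DKO 3.

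The 4 nucleotide supply genes among the 44 were all lower in DKO than in WT, with a median of -0.55. Such genes outside the 44 went either way. Among them Dut was at -0.81 (SE 0.38), Dck at -0.51 (SE 0.54) and Dtymk at -0.11 (SE 0.27). Shmt1 was at 0.64 (SE 0.35) and Rrm2b at 0.13 (SE 0.39). Rrm1, the large subunit of ribonucleotide reductase, was at 64.3, 72.1, 182 and 116 CPM in DKO 1 to 4, 215, 76.6, 166, 87.9 and 138 CPM in CDK18KO 1 to 5, and 187, 118, 194, 235 and 186 CPM in WT 1 to 5. DKO 1, DKO 2 and DKO 4 and CDK18KO 2 and CDK18KO 4 lay below every WT tumour, DKO 3 was near the WT mean, and the difference was -0.76 (SE 0.37, edgeR adjusted p = 0.282). Tyms, thymidylate synthase, was at 56.6, 25.9, 48.5 and 42.2 CPM in DKO 1 to 4, 49.1, 37.2, 55.9, 37.7 and 87.6 CPM in CDK18KO 1 to 5, and 63.4, 61.5, 100.4, 78.1 and 50.1 CPM in WT 1 to 5. DKO 1 exceeded WT 5 and the other DKO tumours lay below all WT tumours, with a difference of -0.71 (SE 0.33, edgeR adjusted p = 0.259). The small reductase subunit Rrm2 averaged 49.7 ± 23.9 CPM in DKO, 52 ± 29.995 in CDK18KO and 64.7 ± 22.5 in WT, and the salvage kinase Tk1 16.6 ± 5.65 CPM in DKO, 22.6 ± 9.49 in CDK18KO and 19.5 ± 7.22 in WT. Neither differed between DKO and WT beyond its error, at -0.39 (SE 0.45) for Rrm2 and -0.23 (SE 0.40) for Tk1.

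Uhrf1 and E2f1 regulate the others or act beside them. Uhrf1, which brings the maintenance methyltransferase to newly copied DNA, was at 20.000, 15.8, 17.8 and 12.2 CPM in DKO 1 to 4, 39.1, 12.8, 37.9, 18.8 and 24.6 CPM in CDK18KO 1 to 5, and 40.8, 33.1, 27.9, 31.5 and 22.4 CPM in WT 1 to 5. All DKO values lay below all WT values, as did CDK18KO 2 and CDK18KO 4, and the difference was -0.92 (SE 0.35, edgeR adjusted p = 0.175) against WT and -0.69 (SE 0.34, edgeR adjusted p = 0.908) against CDK18KO. E2f1, which encodes a transcription factor of the cell cycle, averaged 15.8 ± 11.4 CPM in DKO, 21 ± 6.74 in CDK18KO and 28.9 ± 11.9 in WT, and DKO 1 was the highest DKO tumour at 31.1 CPM, against 4.51 to 17.2 CPM in the others. Its difference was -0.86 (SE 0.50) in DKO and -0.46 (SE 0.46) in CDK18KO against WT.

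Genes of replication outside the 44 showed a like median. Of 55 such genes, among them primase, chromatin assembly and S-phase regulators, 54 were tested, and 46 were lower in DKO than in WT, 18 at an unadjusted p under 0.05 by edgeR, 0 after adjustment and 8 by DESeq2. Over all genes, 5.22% were lower at that unadjusted p and 1.13% by DESeq2. Their median log2 fold change was -0.59 in DKO against WT, -0.37 in DKO against CDK18KO and -0.26 in CDK18KO against WT. Prim2, the large subunit of DNA primase, was at 2.86, 4.51, 8.42 and 8.34 CPM in DKO 1 to 4, 8.7, 4.25, 8.38, 7.6 and 8.8 CPM in CDK18KO 1 to 5, and 21.5, 21.4, 29.4, 22.7 and 23.1 CPM in WT 1 to 5. Every DKO and CDK18KO value lay below every WT value, a gap that none of the 44 genes showed in CDK18KO, and the difference was -1.97 (SE 0.38, edgeR adjusted p = 0.146) in DKO and -1.64 (SE 0.34, edgeR adjusted p = 0.122) in CDK18KO against WT. Pola2, its partner in the polymerase alpha complex, was -1.15 (SE 0.31, edgeR adjusted p = 0.146) in DKO and -0.34 (SE 0.29) in CDK18KO against WT. Chaf1a and Chaf1b, subunits of the chromatin assembly factor that follows the fork, differed by -1.316 (SE 0.35) and -1.75 (SE 0.51) in DKO against WT.

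The cell-cycle regulators of that list differed in direction. E2f8, which encodes a repressor of E2F targets, was at 34, 27.6, 41.1 and 62.2 CPM in DKO 1 to 4, 48.5, 103, 59, 127 and 64.9 CPM in CDK18KO 1 to 5, and 50.4, 29, 47.7, 47 and 46.3 CPM in WT 1 to 5. CDK18KO 2 and CDK18KO 4 stood highest, and the difference was 0.87 (SE 0.31, edgeR adjusted p = 0.196) for CDK18KO against WT, -0.095 (SE 0.33) for DKO against WT and -0.96 (SE 0.34, edgeR adjusted p = 0.626) for DKO against CDK18KO. E2f7, a related repressor, differed by -1.29 (SE 0.60) in DKO and -1.24 (SE 0.55) in CDK18KO against WT. Cdc25a, a phosphatase that activates cyclin-dependent kinases, was lower in all 4 DKO tumours than in any CDK18KO tumour, with a difference of -0.87 (SE 0.29, edgeR adjusted p = 0.584).

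G2 and mitosis genes, which are transcribed later in the cycle, were also lower in DKO, while their median in CDK18KO against WT was near 0. Of 32 such genes 32 were lower in DKO than in WT, 11 at an unadjusted p under 0.05 by edgeR, 0 after adjustment and 4 by DESeq2, with a median of -0.65. The shares of all genes lower were 5.22% at that unadjusted p and 1.13% by DESeq2. Against CDK18KO all 32 were lower too, 13 of them at an unadjusted p under 0.05 (1.86% of all genes), with a median of -0.69. In CDK18KO against WT 14 were lower and 18 higher with a median of 0.07. Their sum was 1965, 1780.4, 3820.5 and 2704 CPM in DKO 1 to 4, 5188, 3293, 4915, 3385 and 4018 CPM in CDK18KO 1 to 5 and 4689, 3221, 3804, 4842 and 3968 CPM in WT 1 to 5. Incenp, a subunit of the chromosomal passenger complex, was -1.24 (SE 0.33, edgeR adjusted p = 0.146) in DKO against WT, and the mitotic motor gene Cenpe -1.17 (SE 0.35, edgeR adjusted p = 0.146). Ndc80, of the outer kinetochore, was -0.88 (SE 0.29, edgeR adjusted p = 0.526) in DKO against CDK18KO, and Kif20a, a kinesin of cytokinesis, -1.13 (SE 0.38, edgeR adjusted p = 0.579). In CDK18KO against WT the smallest p values of the list belonged to Kif20a, at 0.60 (SE 0.35), and to Cdk1, at 0.37 (SE 0.26), the kinase of mitotic entry. CDK18KO 2 and CDK18KO 4, low in the 44 replication genes, had mitosis sums of 3293 and 3385 CPM, within the WT range of 3221 to 4842 CPM, whereas DKO 1, DKO 2 and DKO 4 lay below that range.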

How the data were processed

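RNA of 14 mouse liver tumours was sequenced as stranded 3′ libraries with a 6-base molecular identifier, per the labels' protocols. The deposited table holds raw counts per gene symbol. DESeq2 1.32.0, HTSeq 1.99.2, STAR 2.7.11a, UMI-tools 1.1.2 and FastQC are listed in the submitters' processing notes. The notes name the builds mm10 and GRCh38 with no role for either. Whether identical identifiers were collapsed, the annotation and the strand setting of the counting are not given in the sources used here. The counts therefore may include amplification copies and reads from overlapping genes.

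Counts were tested with edgeR 4.0.16 in R 4.3.3: TMM factors, filterByExpr by group (13997 of 77981 genes, 99.0% of counts), 1 quasi-likelihood fit over all 14 libraries, two-sided F tests, and Benjamini-Hochberg adjustment over the 13997 genes. Groups follow the genotype labels. The SE is the log2 fold change over the square root of F, and intervals are 1.96 SE to either side. The scripts were tested on simulated counts. The 44 genes, the other gene lists and the alternatives were chosen with earlier results of these data known, so no test was made of a list as a whole. Values in every library are given for genes past the threshold, for the 10 smallest p values of each comparison among the 44 and for the 6 ring subunits, and of the other lists the 4 (replication) or 2 (G2 and mitosis) smallest p values of each comparison are named. A gene that this rule names is not reported here. Mcm10 and the others given by library outside this rule, and ratios between genes, were chosen after their values were seen. Genes outside the 44 that are set beside a role group of the 44 were chosen likewise. The samples are labelled as biological replicates, and no pair of a group agreed within sampling noise (lowest chi-square per degree of freedom 16.9). Gene positions came from GENCODE M21 on GRCm38 for all 44 genes, and sequences from RefSeq on GRCm38.p6. Alternatives were DESeq2 1.42.0, RLE, upper-quartile and total scaling, no filter and a stricter filter (10 counts in every library of a group), only the pair compared, the replicate number as a block, a robust fit, voom with sample weights in limma 3.58.1, a Y-linked covariate and each library left out. A hepatocyte covariate, the removal of 3 libraries with more than 100 CPM of Y-linked genes and the count at an unadjusted p were added after the data were seen. The hepatocyte list held 20 genes, of which Tf and G6pc are not analysed here. All of its sample columns were used, and 0 were left out.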

Additional observations from a re-analysis of the deposited data

Results flagged for a closer look

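In 5 of 135 combinations of group with the 44 genes or their summed level, 1 library lay far from the others of its group by a gap test, which chance alone would flag in about 1 in 20. Cdt1 was at 242 CPM in CDK18KO 5, against 87.7 to 119.6 CPM in the other CDK18KO tumours. Rfc5 was at 106 CPM in the same tumour, against 40.4 to 56.8 CPM in the others of its group. Mcm10 was at 94.1 CPM in CDK18KO 4, against 34.0 to 44.1 CPM. Gmnn was at 99.3 CPM in WT 3, against 50.1 to 61.9 CPM in the other WT tumours, and the difference of DKO against WT without WT 3 was -0.58. Pold2 was at 58.3 CPM in DKO 1, against 32.2 to 33.2 CPM in the other DKO tumours.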

How the results depend on the processing

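Of 1863 alternative values for 69 fold changes of the 23 genes given by library, 1799 kept their direction and their side of the threshold, 61 changed sign and 3 passed the threshold. In DKO against WT, 41 to 43 of the 44 genes were lower under every alternative run, except 30 with the hepatocyte covariate. Upper-quartile factors and library totals shifted the median of all genes to -0.16 and -0.19 in DKO against WT, where the 44 genes stood at -0.72 and -0.75, and to -0.13 and -0.15 in CDK18KO against WT, where they stood at -0.28 and -0.31. The hepatocyte covariate, whose markers themselves differ between the groups, moved the median of the 44 genes to -0.16 in DKO against WT, and the cause was not tested.

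Of the 44 genes, edgeR called 0 in each comparison under every alternative run, except 1 in DKO against WT with the replicate block. That gene was Mcm3 (-1.08, edgeR adjusted p = 0.0439). DESeq2 called 2 there, Mcm3 (-1.002) and Rfc1 (-0.86). Libraries with the same replicate number did not regularly deviate together: correlations ran from -0.23 to 0.65, and 6 of 13 pairs were over 0.1. A sample correlated best with its own number in 5 of 26 cases, and the main fit does not pair by number. The correlations take in all genes and cannot show a small effect shared by number. With the block as a replicate pairing, 297 of all genes were called in CDK18KO against WT and 438 in DKO against WT.

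The number of all genes called, 1, 1 and 0 in DKO against WT, CDK18KO against WT and DKO against CDK18KO, was 1033, 856 and 84 by DESeq2 and 252, 173 and 42 with no filter. In CDK18KO against WT it was 0 with a robust fit, and with voom, the Y-linked covariate, only the 2 groups compared or the removal of the 3 libraries high in Y-linked genes it was 0 there and in DKO against WT. With the hepatocyte covariate it was 2 in each of those comparisons. With single libraries left out it ran from 0 to 1, 0 to 74 and 0 to 2, where 74 was without CDK18KO 1.

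The number of the 44 genes lower at an unadjusted p under 0.05 in DKO against WT, 13 beside 5.22% of all genes, was 23 with voom (11.8%), 5 with the Y-linked covariate (3.34%), 7 without the 3 libraries high in Y-linked genes (4.44%) and 0 with the hepatocyte covariate (0.607%). It ran from 4 without DKO 2 (2.42%) to 17 without DKO 3 (10.3%). In CDK18KO against WT, at 0, beside 5.31%, it was 1 with voom (8.84%) or without the 3 libraries (6.38%). With single libraries left out it was 0 to 1 there, beside 3.66% to 9.74%. In DKO against CDK18KO, at 4 beside 1.86%, it was 7 by DESeq2 (2.35%) and 9 with voom (2.06%). It was 2 with upper-quartile factors, the stricter filter, the hepatocyte covariate, only the 2 groups or without the 3 libraries, where 1.37% to 3.14% of all genes were lower. With single libraries left out it ran from 1 to 10, beside 1.19% to 3.35%. The medians of the 44 genes ran from -0.82 to -0.49 in DKO against WT, from -0.28 to -0.04 in CDK18KO against WT and from -0.64 to -0.30 in DKO against CDK18KO over the libraries left out.

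Sign changes were of differences that had not passed the test. In CDK18KO against WT, Mcm7 was at -0.069 with upper-quartile factors, -0.068 with library totals, -0.022 with the stricter filter, -0.037 with voom and -0.40 without the 3 libraries high in Y-linked genes. There, Fen1 was at -0.020 with library totals, Lig1 at 0.039 with no filter, and Pold2 at 0.023 without the 3 libraries. With single libraries left out, the range was -0.24 to 0.20 for Mcm7, -0.30 to 0.00041 for Dbf4, -0.42 to 0.12 for Pold2, -0.026 to 0.24 for Fen1 and -0.11 to 0.16 for Lig1. In DKO against WT, Orc3 was at -0.092 with upper-quartile factors, -0.14 with library totals, -0.25 with the Y-linked covariate and -0.12 without the 3 libraries. With single libraries left out, Orc3 ran from -0.057 to 0.19 and Orc5 from -0.13 to 0.043. In DKO against CDK18KO, Orc1 was at -0.21 with voom, and Orc2 at 0.017 with the Y-linked covariate and 0.10 without the 3 libraries. With single libraries left out, the range there was -0.42 to 0.33 for Orc1, -0.41 to 0.10 for Orc2 and -0.51 to 0.026 for Mcm2.

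The hepatocyte covariate turned further signs. In CDK18KO against WT it gave Orc1 0.092, Cdc6 0.10, Gmnn 0.063, Mcm2 0.19, Mcm3 0.098, Mcm4 0.29, Cdc7 0.087, Dbf4 0.24, Rfc1 0.013, Pole 0.090, Lig1 0.31, Rrm1 0.18 and Uhrf1 0.050. In DKO against WT it gave Orc1 0.36, Orc5 0.032, Mcm2 0.14, Mcm7 0.16, Cdc7 0.090 and Rrm1 0.089, and in DKO against CDK18KO Orc2 0.091 and Cdc7 0.0032. Depth limits Pold1 and Pole2 most, with as few as 4 and 5 counts in a library. Hepatocyte marker levels and Y-linked levels are not balanced between the groups, and p-values measure the spread between these 14 tumours only.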
